A study of Mus musculus with 7 samples.

Results

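The 8 prostanoid receptor genes of the mouse were followed across 7 brain samples, 1 sample per array. They were taken by gene name from the array's own annotation: Ptger1, Ptger2, Ptger3 and Ptger4 (the prostaglandin E2 receptors EP1 to EP4), Ptgdr (the prostaglandin D2 receptor DP1), Ptgfr (the prostaglandin F2alpha receptor), Ptgir (the prostacyclin receptor) and Tbxa2r (the thromboxane A2 receptor). They made up 8 of the 23311 genes tested and 9 of the 39401 probes used, since Ptger3 had 2 probes. All mice were male and on the C57BL/6N background. There were 3 wild type samples and 3 Pla2g2e -/- samples (knockout), both from brains taken on day 3 after a 60-min transient occlusion of the middle cerebral artery, and 1 wild type sample whose title and description give a sham operation. The treatment text of that sample also describes the occlusion, as it does for all samples, so what the sham values stand for rests on the title and description. Pla2g2e encodes a secreted phospholipase A2. There was no Pla2g2e -/- sham sample. The labels give no age, no hemisphere or region, no account of how the allele was made and no statement that replicates came from different mice, so each p-value speaks of the spread among these samples, and that spread may be technical. Samples are named by their labels.

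Prostanoids are made from arachidonic acid, which phospholipases release from membranes and cyclooxygenases convert to an unstable endoperoxide that terminal synthases turn into prostaglandins E2, D2 and F2alpha, prostacyclin and thromboxane A2. The ligands act near the cell that made them, through G protein-coupled receptors of the rhodopsin family. EP2, EP4, DP1 and the prostacyclin receptor couple mainly to Gs and raise cyclic AMP, the prostaglandin F2alpha and thromboxane receptors couple mainly to Gq and raise calcium, EP1 raises calcium, and EP3 couples mainly to Gi and lowers cyclic AMP. In brain the receptors are found on neurons, glia, vessel walls and blood-derived cells, and they are known for effects on vascular tone, platelet aggregation, fever, pain and inflammation.

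Each level rests on 1 probe of 60 bases, and the first 30 bases of the probes that the results turn on are given here to show which stretch of each transcript was read. Positions of the whole probes are in mouse build mm9, as the array files give them, and sequences run 5′ to 3′.
Ptger4, chr15:5184419-5184478 (minus strand): aagcacattggctgtcattctgatgtgact
Ptgdr, chr14:45470921-45470980 (minus strand): ggtatgctatggtaactgtctagagaattt
Ptgir, chr7:17496120-17496179 (plus strand): cagttgctgactttgtaaatgatccaaata
Ptger1, chr8:86193943-86194002 (plus strand): cctgctccaagcacactccagtccagatgc
Tbxa2r, chr10:80797520-80797579 (plus strand): tgagtgcttggtggactaaggacggagcta
Ptger3, brighter probe, chr3:157307508-157307567 (plus strand): ctaaatgttcagctagagctgttaaaagga
Ptger3, dimmer probe, chr3:157268044-157268103 (plus strand): accagatcttggatccctgggtttatctgc
The 2 Ptger3 probes start 39464 bases apart, so they read different parts of the gene. All 9 probes were well above background on 7 of 7 arrays. The probe of Ptgdr2, a prostaglandin D2 receptor of another family that is not a member, was not well above background on any array.

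A level here is the log2 of a probe's processed signal relative to the 75th percentile of its array, so it compares arrays for 1 probe and does not rank the receptors against each other. Wild type day 3 replicate 1 stood apart from the other arrays over all probes. Its correlation with each other array over the 39401 probes was 0.919 to 0.952, against 0.978 to 0.991 for the other 15 pairs of arrays. It was the lowest of the 7 arrays for 34.3% of the genes tested and the highest for 43.9%. The comparisons of the receptors and of the pathway genes are therefore given with and without it. All wild type arrays were on 1 slide and all knockout arrays on another, and the effects of slide and of genotype cannot be told apart. Between 72.5% and 79.1% of spots other than controls were well above background on each array. The medians of the neuron, astrocyte, microglia and oligodendrocyte marker lists lay above the 75th percentile on all 7 arrays. For the brighter probe of Pla2g2e, the disrupted gene, the levels were -6.89, -3.68 and -3.36 in wild type day 3, -4.69 in sham and -4.44, -5.83 and -4.97 in knockout, so the groups overlapped through wild type replicate 1, and the other 2 wild type day 3 arrays lay above all 3 knockout arrays. The dimmer probe, well above background on 3 arrays, read -9.0002, -6.72 and -6.50 in wild type day 3, -6.83 in sham and -7.94, -8.44 and -7.84 in knockout, again with wild type replicate 1 the lowest and the other 2 wild type day 3 arrays above the knockout arrays. The sources used here do not say whether either probe lies in the disrupted part.

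Among the receptors that raise cyclic AMP, Ptgir had the widest span of levels over all 7 arrays, and Ptgdr had it (1.87) when wild type replicate 1 was left out. Ptgir, which binds prostacyclin on platelets and vascular smooth muscle, read -6.10, -0.83 and -0.73 in wild type day 3 replicates 1, 2 and 3, -1.64 in sham and -1.17, -1.71 and -0.60 in knockout replicates 1, 2 and 3. Wild type replicate 1 was 4.40 below the lowest other array on the log2 scale, a 21.1-fold lower signal, and 0.991% of all genes tested had a larger gap on that array. Of the other 6 arrays, sham and knockout replicate 2 were the lowest. Ptger4, the receptor EP4, read -6.06, -3.02 and -3.42 in wild type day 3, -2.55 in sham and -3.67, -3.37 and -3.49 in knockout. Sham was the highest of the 7 arrays for Ptger4, and it was so for no other receptor and for 6.67% of all genes. Wild type replicate 1 was 2.39 below the lowest other array for Ptger4, a 5.24-fold lower signal, with a larger gap in 4.65% of all genes.

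Ptgdr, the prostaglandin D2 receptor DP1, read -4.81, -1.62 and -0.85 in wild type day 3, -2.72 in sham and -1.80, -2.01 and -0.88 in knockout. The lowest was again wild type replicate 1, by 2.10, and sham was the lowest of the rest. Ptger2, the receptor EP2, read -4.93, -3.08 and -3.12 in wild type day 3, -3.48 in sham and -2.48, -3.49 and -3.56 in knockout. Here wild type replicate 1 was the lowest by 1.36 and knockout replicate 1 the highest, while sham lay next to the other 2 knockout arrays.

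Of the receptors that raise calcium, Tbxa2r, which drives platelet aggregation and vessel constriction, read -3.38, -1.02 and -1.07 in wild type day 3, -1.98 in sham and -1.23, -1.51 and -0.80 in knockout. The lowest array was wild type replicate 1, by 1.41, with sham next. Ptgfr, the prostaglandin F2alpha receptor, read -5.32, -4.48 and -4.29 in wild type day 3, -4.56 in sham and -4.16, -5.21 and -4.04 in knockout. Wild type replicate 1 and knockout replicate 2 were both low and only 0.11 apart, so the groups overlapped. Ptger1, the receptor EP1, read -3.92, -3.50 and -3.54 in wild type day 3, -4.04 in sham and -4.18, -3.996 and -3.98 in knockout. It was the receptor with the narrowest span over the arrays other than wild type replicate 1 (0.68), and its 3 knockout arrays all lay below its 3 wild type day 3 arrays.

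The receptor that lowers cyclic AMP, Ptger3 (EP3), read -5.07, -5.39 and -4.87 in wild type day 3 on its brighter probe, -5.69 in sham and -5.48, -5.69 and -4.94 in knockout. Its dimmer probe read -5.81, -6.85 and -5.96 in wild type day 3, -6.75 in sham and -5.81, -5.92 and -5.86 in knockout. On the brighter probe sham and knockout replicate 2 were the lowest, and on the dimmer probe wild type replicate 2 and sham were. Wild type replicate 1 was not the lowest array on either Ptger3 probe or for Ptger1. For the other 6 of the 8 receptors it was, beside 34.3% of all genes tested.

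**Figure D1:**
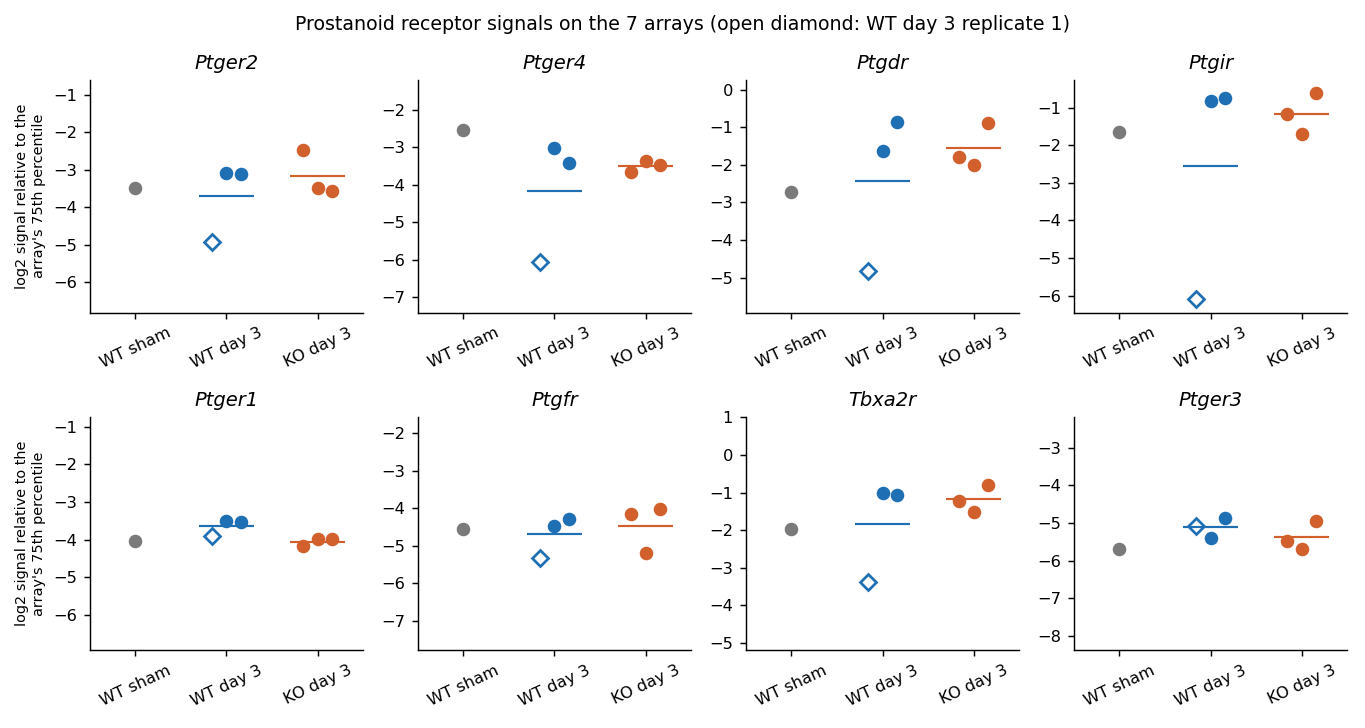
Log2 signal of each receptor relative to the array's 75th percentile (y axes, each spanning the same range) on the wild type sham array (grey), the 3 wild type day 3 arrays (blue, open diamond for replicate 1) and the 3 knockout day 3 arrays (orange); lines are the means of 3 arrays. The open diamond is the lowest array in 6 of the 8 panels, by 4.40 for Ptgir, and in the Ptger1 panel the knockout points all lie below the wild type day 3 points.

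With all 7 arrays, no receptor passed the test between genotypes on day 3. The fit was limma over all 23311 genes with Benjamini-Hochberg adjustment, which called 0% of all genes at an adjusted p under 0.05, and 0 of the 8 receptors passed even an unadjusted p of 0.05, against 0.845% of all genes. The difference, knockout minus wild type, was 1.40 ± 1.52 (SE) for Ptgir, 0.87 ± 1.07 for Ptgdr, 0.66 ± 0.82 for Ptger4 and 0.53 ± 0.61 for Ptger2. It was 0.65 ± 0.69 for Tbxa2r and 0.22 ± 0.44 for Ptgfr. For these 6 receptors wild type replicate 1 was the lowest of all 7 arrays. The 2 receptors without that pattern had negative differences, -0.40 ± 0.20 for Ptger1 and -0.26 ± 0.28 for Ptger3. Adjusted p in limma was 0.875 for Ptgfr and 0.862 for each of the other 7. The median over the 8 receptors was 0.59, beside -0.03 over all genes.

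Without wild type replicate 1, all 8 receptors, Ptger3 by its brighter probe, had a lower mean in knockout than in the 2 remaining wild type arrays, while 49.6% of all genes did. The differences were -0.38 ± 0.35 (SE) for Ptgir, -0.33 ± 0.44 for Ptgdr, -0.29 ± 0.19 for Ptger4 and -0.08 ± 0.37 for Ptger2. They were -0.54 ± 0.13 for Ptger1, -0.13 ± 0.24 for Tbxa2r, -0.09 ± 0.40 for Ptgfr and -0.24 ± 0.30 for Ptger3. The signs of 6 of the 8 thus turned when 1 array was left out, and the adjusted p in limma was 1.00 for every receptor. Signs also turned in each list of pathway genes described below, for between 10 of 21 and 5 of 7 genes. The intervals say what sizes these arrays leave possible. Without replicate 1 the 95% interval ran from -1.28 to 0.53 for Ptgir, from -1.46 to 0.81 for Ptgdr and from -0.79 to 0.20 for Ptger4, whereas with it the interval for Ptgir ran from -2.38 to 5.17.

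Ptger1 and Ptger3 kept their sign when that array was left out, and Ptger1 was the receptor whose groups did not overlap. The mean of Ptger1 was -4.05 ± 0.11 (SD, n = 3) in knockout and -3.65 ± 0.23 (SD, n = 3) in wild type day 3. Such a lack of overlap in either direction held for 4.53% of all genes, and with knockout lower for 2.65%. Without wild type replicate 1 these shares were 11.7% and 5.33%, and Ptger1 was again the receptor without overlap, with Ptger3 taken by its brighter probe. On the dimmer Ptger3 probe the 3 knockout arrays (-5.92 to -5.81) then lay above the remaining wild type arrays (-6.85 and -5.96). The smallest p that an exact two-sided permutation test of 3 against 3 arrays can give is 0.1. In limma the unadjusted p was 0.0938 using every array and 0.0111 without wild type replicate 1, where 1.63% of all genes had an unadjusted p under 0.05, and the adjusted p was 0.862 and 1.00.

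The probes of Ptger3 differed in sign. The brighter probe gave -0.26 ± 0.28 (SE) and the dimmer 0.34 ± 0.31 in a fit of 29994 single probes, with adjusted p in limma of 0.862 for both. Without wild type replicate 1 they gave -0.24 ± 0.30 and 0.54 ± 0.29, with adjusted p of 1.00 for both, so neither direction passed the test.

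**Figure D2:**
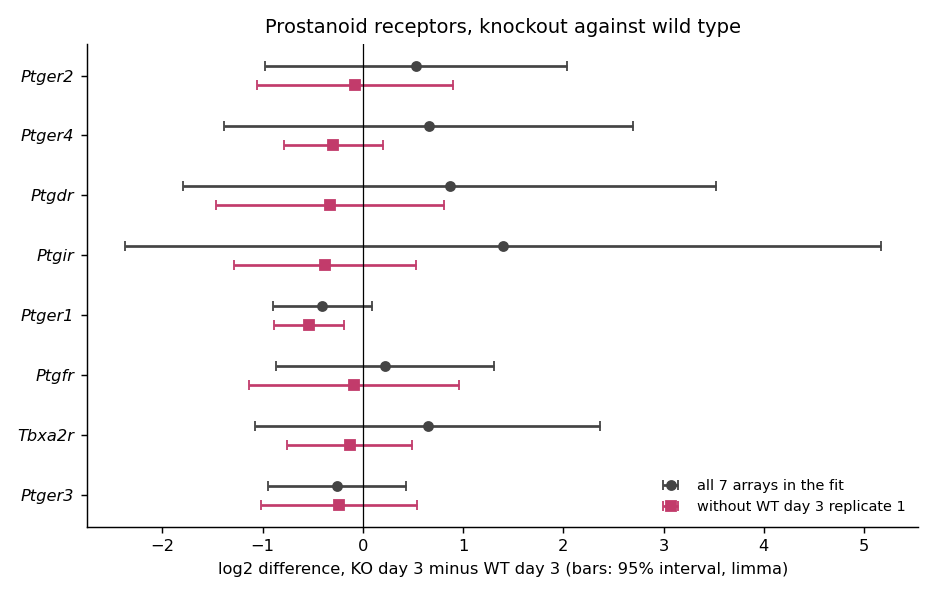
Log2 difference of each receptor, knockout day 3 minus wild type day 3, with its 95% interval from limma, using all arrays and leaving out wild type day 3 replicate 1. For 6 of the 8 receptors the values change from above 0 to below 0 when that array is left out, while Ptger1 stays below 0 at -0.40 and -0.54.

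The comparison of day 3 after occlusion with the sham operation rested on 1 sham array, whose spread was taken to be that of the day 3 arrays. In wild type mice 0 of the 8 receptors passed at an adjusted p under 0.05 or at an unadjusted one in limma, beside 0.0129% and 1.12% of all genes. The difference, wild type day 3 minus sham, was -1.62 ± 1.16 (SE) for Ptger4, -0.92 ± 2.15 for Ptgir, 0.58 ± 0.39 for Ptger3 and 0.39 ± 0.28 for Ptger1. It was 0.29 ± 1.51 for Ptgdr, -0.23 ± 0.86 for Ptger2, 0.15 ± 0.98 for Tbxa2r and -0.13 ± 0.62 for Ptgfr. The sham level lay outside the 3 wild type day 3 levels for 3 of the 8 receptors, beside 27.8% of all genes. It lay below them for Ptger1 and Ptger3 (16.7% of all genes) and above them for Ptger4 (11.1%). Ptger3 is given here by its brighter probe. On its dimmer probe sham (-6.75) lay above wild type replicate 2 (-6.85), so sham was not outside the wild type levels there.

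Without wild type replicate 1, 7 of the 8 receptors read above sham in wild type day 3 mice and Ptger4 read below it. Ptgdr differed by 1.48 ± 0.59 (SE), Tbxa2r by 0.93 ± 0.32, Ptgir by 0.86 ± 0.47, Ptger3 by 0.55 ± 0.40, Ptger1 by 0.52 ± 0.18, Ptger2 by 0.38 ± 0.50, Ptgfr by 0.18 ± 0.54 and Ptger4 by -0.67 ± 0.25. The unadjusted p in limma was 0.0344 for Ptger1, 0.0364 for Tbxa2r and 0.0480 for Ptger4, and 4.52% of all genes were under 0.05. The adjusted p in limma was 0.769 for these 3 receptors, so none passed, beside 0.0257% of all genes. With 2 arrays against 1, 82.5% of all genes did not overlap (42.1% with sham below and 40.4% with sham above). The lack of overlap of all 8 receptors, Ptger3 by its brighter probe, is thus near the background. On the dimmer Ptger3 probe sham lay between the 2 wild type arrays.

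In knockout mice the same sham array served as the reference, so the results are not independent of those in wild type. Ptger4 differed by -0.96 from sham, Ptgdr by 1.15, Tbxa2r by 0.80, Ptgir by 0.48, Ptger3 by 0.32, Ptger2 by 0.30, Ptgfr by 0.10 and Ptger1 by -0.01. Sham lay outside the 3 knockout levels for Ptger4, Ptgdr and Tbxa2r, that is for 3 of the 8 receptors. This held for 54.3% of all genes (28.5% with sham below and 25.8% with sham above). Ptger3 is again given by its brighter probe. Its dimmer probe differed from sham by 0.89 ± 0.44 (SE), and all 3 knockout arrays lay above sham on it. With all 7 arrays the adjusted p in limma was 1.00 for each, 0 of the 8 had an unadjusted p under 0.05, and the shares of all genes were 0.0129% and 1.3%. With the spread estimated without wild type replicate 1, Ptger4 had a standard error of 0.24 and an unadjusted p of 0.0110, and Tbxa2r one of 0.30 and 0.0490, beside 4.91% of all genes. Their adjusted p in limma was 0.712, and 0.0343% of all genes passed. Ptger4 was thus below sham on each of the 6 day 3 arrays, by 0.47 or more, beside 6.67% of all genes with sham as the highest array.

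**Figure D3:**
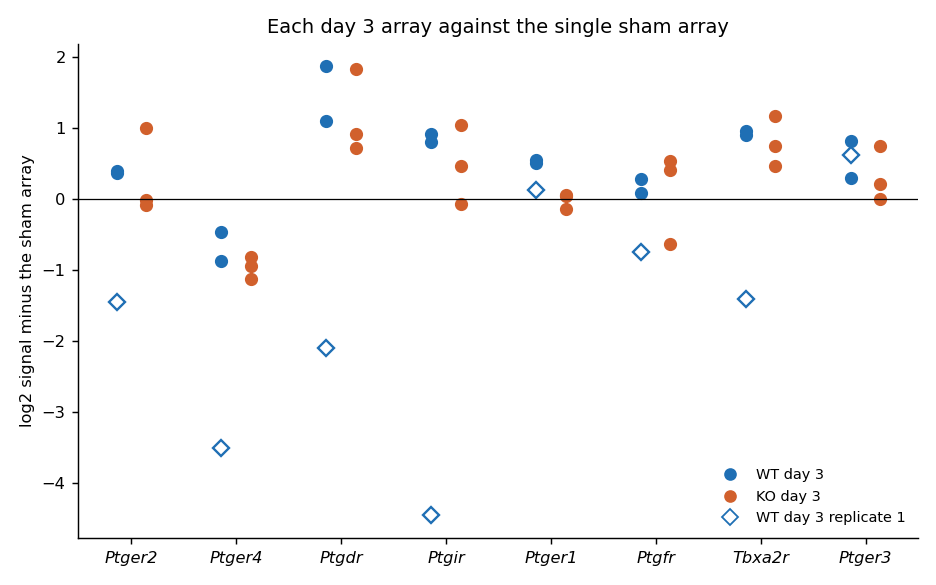
Log2 difference of each receptor on each day 3 array from the single wild type sham array, for wild type (blue, open diamond for replicate 1) and knockout (orange) arrays; 0 is the sham level. Ptger4 lies below 0 on all 6 day 3 arrays, and Ptgdr and Tbxa2r lie above 0 on the 5 arrays other than wild type replicate 1.

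Ptgdr, Ptgir and Tbxa2r ran alike across the 6 arrays other than wild type replicate 1. Over these 6 arrays Pearson's r was 0.91 for Ptgdr with Tbxa2r, 0.90 for Ptgir with Tbxa2r and 0.89 for Ptgdr with Ptgir. Ptgfr had r = 0.77 with Ptgir, 0.56 with Tbxa2r and 0.54 with Ptgdr. The brighter probe of Ptger3 had r = 0.94 with Ptgdr, 0.90 with Ptgir, 0.78 with Tbxa2r and 0.68 with Ptgfr, but its dimmer probe had 0.51, 0.16, 0.39 and 0.16, so the likeness of Ptger3 rests on 1 of its 2 probes. Ptger4 ran the other way, with r = -0.67 with Tbxa2r, -0.66 with Ptgdr and, more weakly, -0.41 with Ptgir. Over all 7 arrays, r was 0.98 for Ptgdr with Tbxa2r, 0.97 for Ptgir with Tbxa2r and 0.16 for Ptgdr with the brighter Ptger3 probe. For Ptger4 it was 0.73 with Ptgdr, 0.89 with Ptgir and 0.76 with Tbxa2r. The values for Ptger3 and Ptger4 thus rest on whether wild type replicate 1 is used. These are descriptions over arrays that share a slide, a group or both. Ptgir, Ptgdr, Tbxa2r and the brighter Ptger3 probe had sham and knockout replicate 2 as their lowest arrays among the 6.

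Several lists of cell type markers were, like Ptgir, Ptgdr and Tbxa2r, lowest on wild type replicate 1, whereas Ptger3 and Ptger1 were not low there. The median level of 9 endothelial markers was -0.65 on wild type replicate 1, 1.15 on sham, 1.39 on knockout replicate 2 and 2.13 to 2.35 on the remaining 4 arrays, and 8 of the 9 were lowest on wild type replicate 1. The median of 8 measured monocyte and macrophage markers was -3.22 on wild type replicate 1 and 0.87 to 2.29 elsewhere, with 7 of 8 lowest there. The median of 9 measured neutrophil markers was -6.94 on wild type replicate 1, -3.63 on sham and -2.83 to -0.80 elsewhere, with 6 of 9 lowest there. Meningeal fibroblast markers had a median of -1.22 against 1.43 to 2.24 elsewhere, with 6 of 8 lowest there, microglia 0.22 against 1.63 to 2.64, with 7 of 9 lowest, and pericytes and smooth muscle -1.06 against -0.08 to 0.87, with 8 of 10 lowest. Platelet markers had a median of -4.64 against -4.18 to -2.36 elsewhere, with 5 of 7 lowest there. Neuron markers went the other way, with all 12 highest on wild type replicate 1 and a median of 3.83 against 0.12 to 2.29. Astrocyte markers had their highest median there, 2.90 against 1.08 to 2.55, with 1 of 9 lowest, and the medians of oligodendrocyte (2.69), lymphocyte (-1.85) and choroid plexus and ependyma (-3.79) markers lay within the range of the other arrays, with 0 of 8, 0 of 6 and 1 of 8 lowest. The part of these cell types in the receptors' levels was not tested, and in whole tissue fewer cells of a type and less RNA per cell cannot be told apart.

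**Figure D4:**
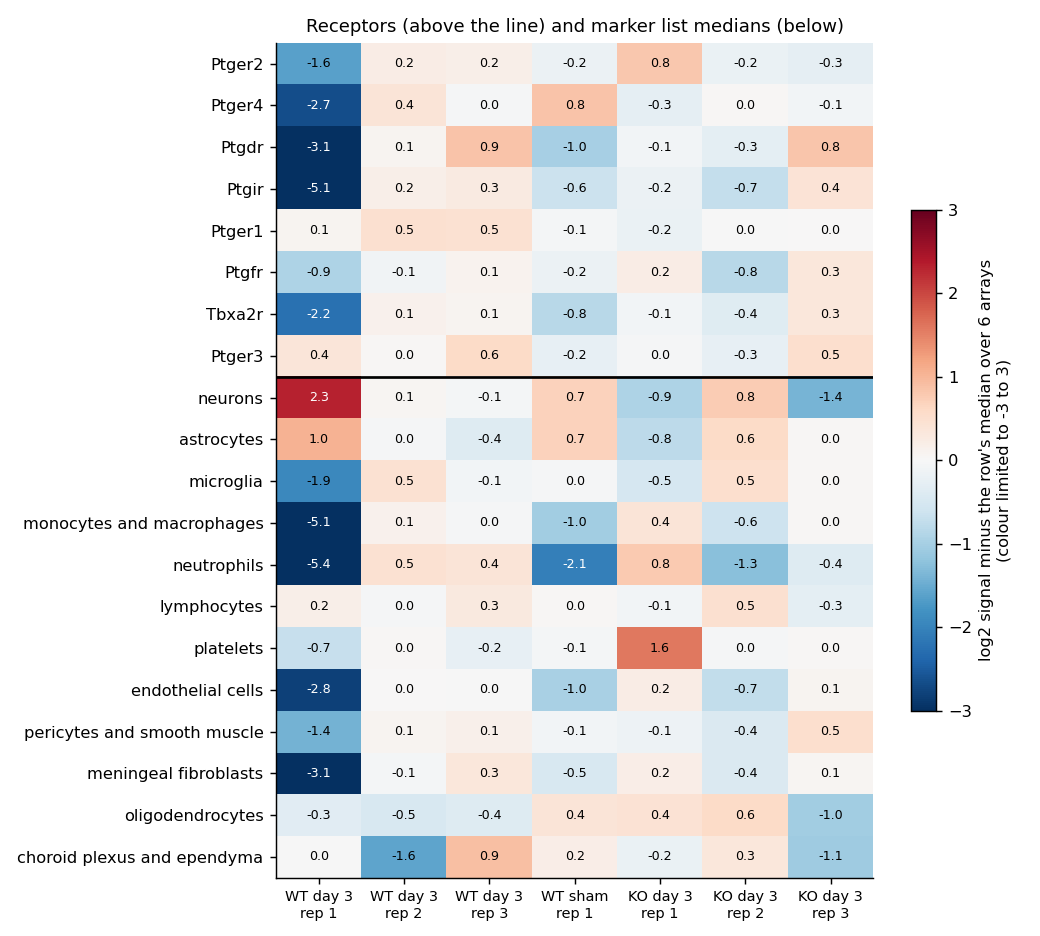
Median log2 level of each marker list on each array, beside the receptors (rows are receptors and lists, columns are arrays). Colour and printed number give the level minus the row's median over the 6 arrays other than wild type day 3 replicate 1. Before that subtraction, the endothelial median on wild type day 3 replicate 1 is -0.65, the neutrophil median -6.94 and the neuron median 3.83.

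The promoters of Ptgir and Ptgdr, whose levels ran alike, are shown with those of Ptger4, which ran the other way over the 6 arrays, and Ptger3, whose probes differed, so that their letters can be compared. A window of 250 bases before the start site was read from RefSeq (GRCm38.p6, 5′ to 3′ on the gene's strand), where 7 of the 8 receptors had an entry. Tbxa2r had 2 start sites and so 2 windows. Capitals mark matches, on either strand, to a GC box (GGGCGG) or to the core of a PU.1 site (GAGGAA), PU.1 being a transcription factor of myeloid cells.
Ptgir promoter, chr7:16906240-16906489 (plus strand): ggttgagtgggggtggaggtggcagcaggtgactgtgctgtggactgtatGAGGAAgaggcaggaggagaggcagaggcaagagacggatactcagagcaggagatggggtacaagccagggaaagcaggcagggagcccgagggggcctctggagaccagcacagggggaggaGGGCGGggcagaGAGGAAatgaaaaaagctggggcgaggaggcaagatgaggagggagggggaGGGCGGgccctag
Ptgdr promoter, chr14:44859376-44859625 (minus strand): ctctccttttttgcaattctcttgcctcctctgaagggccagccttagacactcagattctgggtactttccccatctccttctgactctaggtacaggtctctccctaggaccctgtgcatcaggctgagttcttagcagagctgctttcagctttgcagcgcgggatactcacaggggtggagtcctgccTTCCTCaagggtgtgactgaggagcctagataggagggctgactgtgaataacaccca
Ptger4 promoter, chr15:5244188-5244437 (minus strand): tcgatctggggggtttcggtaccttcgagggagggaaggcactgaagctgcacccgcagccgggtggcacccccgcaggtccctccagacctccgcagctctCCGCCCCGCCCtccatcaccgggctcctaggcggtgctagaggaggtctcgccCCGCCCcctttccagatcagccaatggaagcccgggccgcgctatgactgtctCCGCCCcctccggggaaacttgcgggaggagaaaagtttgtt
Ptger3 promoter, chr3:157566626-157566875 (plus strand): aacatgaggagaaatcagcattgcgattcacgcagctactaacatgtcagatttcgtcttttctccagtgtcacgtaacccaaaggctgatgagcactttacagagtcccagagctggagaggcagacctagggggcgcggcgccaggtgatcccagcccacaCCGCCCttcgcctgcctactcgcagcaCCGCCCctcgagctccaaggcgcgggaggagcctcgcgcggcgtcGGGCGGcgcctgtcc
A GC box was found in 4 of the 7 genes, in 32.7% of 32851 promoters of the same length. Ptger4 held 4, of which the first 2 overlap by 1 base, Ptger3 held 3, Ptgir 2 and Ptgfr 1. The PU.1 core was found in 3 of the 7, in Ptgir with 2 matches and in Ptgdr and Ptgfr with 1 each, against 23.3% of promoters. The half-site of the cyclic AMP response element (TGACG) was found in 1 of the 7, the second window of Tbxa2r, against 17.8%. Neither an AP-1 site (TGANTCA, in 6.75% of promoters) nor a TATA box (TATAAA, in 12.4%) was found in these windows. None of the 5 motifs was found in all of Ptgir, Ptgdr and Tbxa2r. The GC content was 63.6% for Ptgir, 53.2% for Ptgdr, 62.0% for Ptger3 and, for the 2 windows of Tbxa2r, 62.4% and 60.4%. It was lowest for Ptger2 (38.0%) and highest for Ptger4 (66.8%), beside a median of 52.4% over all promoters. These are matches of letters and not sites shown to be bound.

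The genes around the receptors in the pathway were described the same way, from lists of synthesis, transport and breakdown, signalling and target genes. In none of the 7 lists did any gene pass between genotypes in limma, with 0 at an adjusted p under 0.05 and 0 at an unadjusted p under 0.05 with all arrays. Of 12 synthesis genes, 9 read higher in knockout and 3 lower, with a median difference of 0.32 that was 0.05, with 7 higher and 5 lower, without wild type replicate 1. Ptgs2, the inducible cyclooxygenase, read -3.03, -1.18 and -0.59 in wild type day 3, -2.004 in sham and -0.09, -1.77 and 0.14 in knockout, a difference of 1.03 ± 0.81 (SE) that was 0.31 ± 0.65 without wild type replicate 1. Its levels were low on sham and knockout replicate 2, as those of Ptgir, Ptgdr and Tbxa2r were. Ptgs1, the constitutive cyclooxygenase, read 0.10 on wild type replicate 1 and 0.99 to 1.39 on the other arrays, and Tbxas1, thromboxane synthase, -2.29 and 1.19 to 1.60. Their differences were 0.47 ± 0.34 and 1.35 ± 1.04 with all arrays, and 0.12 ± 0.15 and 0.13 ± 0.17 without replicate 1.

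Of 7 measured genes of prostanoid transport and breakdown, 6 read higher in knockout and 1 lower, with a median difference of 0.79 that was -0.06, with 3 higher and 4 lower, without wild type replicate 1. Hpgd, the enzyme that begins the breakdown of prostaglandins, read -2.47, -1.54 and -1.43 in wild type day 3, -0.94 in sham and -1.50, -0.83 and -0.74 in knockout. Its difference was 0.79 ± 0.38 (SE) over the 7 arrays and 0.46 ± 0.27 without wild type replicate 1, and knockout replicate 1 lay within the wild type range. Ptgr1, which reduces prostaglandin breakdown products, and Abcc4, an exporter of prostaglandins and cyclic AMP, differed by 1.27 ± 1.19 and 0.90 ± 0.89, and by -0.13 ± 0.17 and -0.07 ± 0.41 without replicate 1.

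Of 21 genes of Gs and cyclic AMP signalling, 15 read lower in knockout and 6 higher (median -0.32), beside 53.1% of all genes lower. On wild type replicate 1, 14 of the 21 had their highest level, beside 43.9% of all genes. Without that array the median was -0.03, with 11 lower and 10 higher. Adcy1, a neuronal adenylyl cyclase, differed by -1.73 ± 1.12 (SE) and by -0.43 ± 0.33 without it, Pde4a, a phosphodiesterase that degrades cyclic AMP, by -0.70 ± 0.49 and -0.22 ± 0.30, and Rapgef4, an exchange factor activated by cyclic AMP, by -0.40 ± 0.24 and -0.31 ± 0.23. Among 10 measured targets of cyclic AMP, 5 read higher and 5 lower (median -0.23), and without replicate 1 the counts were 2 higher and 8 lower (median -0.13). Bdnf, a neurotrophin, differed by -1.51 ± 0.79 and by -0.64 ± 0.34 without replicate 1, Nr4a2 by -1.48 ± 0.92 and -0.44 ± 0.34, and Ppargc1a by -0.84 ± 0.64 and -0.26 ± 0.48.

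Of 18 genes of Gq, G12/13 and Gi signalling, 11 read higher and 7 lower (median 0.21). Without wild type replicate 1 the counts were 8 higher and 10 lower (median -0.03). There, 1 had an unadjusted p under 0.05 in limma, beside 1.63% of all genes. Gna12, a G protein alpha subunit, differed by 0.41 ± 0.25 (SE) and by 0.20 ± 0.16 without that array, the small GTPase Rhoa by 0.73 ± 0.59 and 0.05 ± 0.13, and Gnao1, a neuronal Gi-family subunit, by -0.98 ± 0.81 and -0.11 ± 0.39. Of 9 genes of receptor desensitisation 3 read higher and 6 lower (median -0.25), and without replicate 1 the counts were 5 higher and 4 lower (median 0.04). The receptor kinase Grk2 differed by -0.33 ± 0.21 and by -0.20 ± 0.16 without replicate 1, Rgs4, which speeds the shut-off of G proteins, by -1.31 ± 0.92 and -0.25 ± 0.24, and the arrestin Arrb2 by 0.42 ± 0.43 and -0.05 ± 0.13.

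Among the receptors of other lipid mediators, 11 of the 20 measured changed sign when wild type replicate 1 was left out. The other lists did likewise, with 5 of 7 for transport and breakdown, 6 of 9 for desensitisation and 11 of 18 for Gq, G12/13 and Gi signalling. The counts were 6 of 12 for synthesis, 5 of 10 for cyclic AMP targets and 10 of 21 for Gs and cyclic AMP signalling. Of the 20 lipid mediator receptors, 14 read higher in knockout and 6 lower with all arrays (median 0.37). Without wild type replicate 1, 3 read higher and 17 lower (median -0.16), beside 49.6% of all genes lower. There, 2 had an unadjusted p under 0.05 in limma, beside 1.63% of all genes. Cysltr2, a leukotriene receptor, differed by -0.46 ± 0.27 (SE) and by -0.64 ± 0.22 without replicate 1, Ltb4r2, a receptor of leukotriene B4, by -0.42 ± 0.22 and -0.32 ± 0.20, and Lpar6, a receptor of lysophosphatidic acid, by 0.86 ± 0.66 and 0.11 ± 0.18. The adjusted p in limma was 0.862 with all arrays for each of the pathway genes named here.

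**Figure D5:**
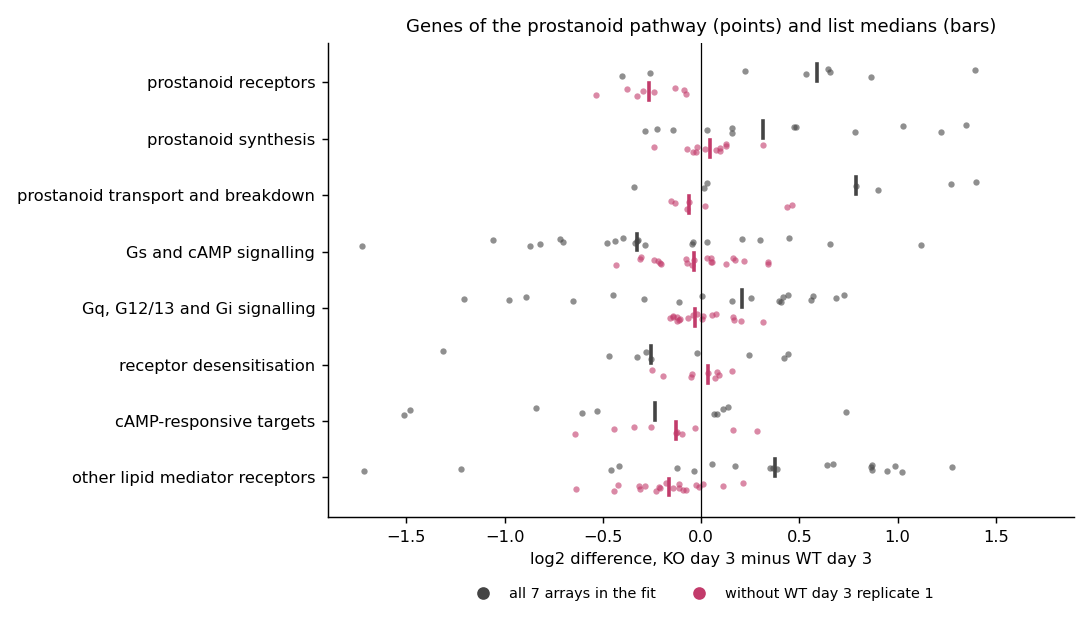
Log2 difference, knockout day 3 minus wild type day 3, of each measured gene (points) and the median (bars) of the receptors and of 7 lists of pathway genes, using all arrays (dark) or leaving out wild type day 3 replicate 1 (pink). The median of the receptors moves from 0.59 to -0.27 and that of the transport and breakdown genes from 0.79 to -0.06.

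The genes whose levels ran most like each receptor were sought among 15524 genes well above background on all arrays, by Pearson's r. Over 7 arrays the closest to Ptgir were Dtx3l, Spata6 and Osmr, to Tbxa2r Gjc1, Pgm5 and Irak2, to Ptgdr Tmem170, Lhfp and Pcolce, and to Ptger4 Soga1, Prdm1 and Cd200r4. For Ptger2 they were Stk4, Hnrnpa2b1 and Slc38a10, for Ptgfr Zfp143, Olfr1198 and Nxpe2, for Ptger3 Wnk4, Zfp189 and Tmem259, and for Ptger1 Cysltr2 (r = 0.93), Tra2a and Asb18. Over the 6 arrays without wild type replicate 1 the closest to Ptgir were Stx12, Trib3 and Dtx3l, to Tbxa2r Acad10, Rhot1 and Irak2, to Ptgdr Tm9sf3, Cul7 and Golph3l, and to Ptger4 Lce1c, Naxd and Zfp455. They were Blmh, Sptssa and Fbxo39 for Ptger2, Trim30d, Zfp143 and Spry4 for Ptgfr, Armcx2, Naa50 and Snx13 for Ptger3 and Pxdn, Baz2b and Arhgap10 for Ptger1. Dtx3l for Ptgir, Irak2 for Tbxa2r and Zfp143 for Ptgfr were among the closest 3 in both, and for the other 5 receptors the closest 3 were replaced. The points share slides and groups, and r over 6 or 7 arrays is given as a description.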

How the data were processed

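Brain RNA of 7 samples was amplified, labelled with Cy3 and hybridised to 1-colour Agilent arrays, per the labels' protocols. The authors deposited scanner intensity from Agilent Feature Extraction 11.5.1.1, per the submitters' processing notes, in which the processed signal is background-subtracted within each array, per the file headers. The deposited value table is a linear ratio that equalled the processed signal over the array's 75th percentile, within 0.0428%. Here log2 of the deposited processed intensity minus the array's 75th percentile over spots other than controls was used. Spots flagged as outliers were left out, the brightest probe stood for a gene, and genes well above background on at least 3 arrays were tested. No spot was saturated, and precision is limited by how few arrays there are. One limma (3.58.1, R 4.3.3) model of 3 groups was fitted, with two-sided tests, Benjamini-Hochberg adjustment across 23311 genes and a threshold of 0.05, and was tested on simulated data.

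The members and gene lists were chosen with earlier results of these data known. All 8 receptors were named in each comparison, with up to 3 genes per pathway list by smallest p and the 3 genes most alike each receptor by correlation. RefSeq matched 28315 probes by accession, and 7 of the 8 receptors had a promoter entry. Alternatives covered background correction, scaling, the probe rule, the filter, array weights, the arrays used, the replicate block and leaving out each array. Slide as a block could not be fitted, since each genotype lies on 1 slide.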

Additional observations from a re-analysis of the deposited data

How the results depend on the processing

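Across all alternatives 0 of the 8 receptors were called in any comparison, and the smallest adjusted p in limma was 0.0943, for Ptger1, wild type day 3 minus sham, under array weights. Ptger1, knockout minus wild type, stayed below 0 in 19 of 19 settings (-0.57 to -0.20, adjusted p 0.394 to 1.00). Settings that changed only the filter, the probe rule, the block or the use of sham left its difference at -0.40 by construction. The 19 settings are therefore not separate checks of the sign. Leaving out 1 array gave ranges that crossed 0 for knockout minus wild type of -0.33 to 1.66 (Ptgdr), -0.077 to 0.84 (Ptger2), -0.29 to 1.23 (Ptger4), -0.087 to 0.59 (Ptgfr), -0.38 to 2.31 (Ptgir) and -0.13 to 1.05 (Tbxa2r). For wild type minus sham they were -0.50 to 1.48 (Ptgdr), -0.54 to 0.38 (Ptger2), -0.33 to 0.18 (Ptgfr), -1.83 to 0.86 (Ptgir) and -0.25 to 0.93 (Tbxa2r). Wild type replicate 1 was the array whose removal turned the sign in the first comparison and, in the second, for Ptger2, Ptgfr and Ptgir, while for Ptgdr and Tbxa2r the removal of wild type replicate 2 or 3 did. For knockout minus sham the ranges were -0.047 to 0.051 (Ptger1), -0.048 to 0.49 (Ptger2) and -0.12 to 0.46 (Ptgfr), turned by knockout replicate 1 or, for Ptgfr, also 3. Without both wild type replicate 1 and sham, knockout minus wild type was -0.33 (Ptgdr), -0.077 (Ptger2), -0.29 (Ptger4), -0.087 (Ptgfr), -0.38 (Ptgir) and -0.13 (Tbxa2r). Array weights, which gave wild type replicate 1 a weight of 0.0513, turned knockout minus wild type to -0.44 (Ptger4), -0.15 (Ptgir), -0.034 (Tbxa2r) and 0.0027 (Ptger3), and wild type minus sham to 0.37 (Ptger2), 0.12 (Ptgfr) and 0.79 (Ptgir). The mean of both Ptger3 probes gave 0.043, normexp gave 0.066 for Ptgfr in wild type minus sham, and Ptger1 in knockout minus sham was 0.15 with normexp, 0.13 with quantile normalization and 0.11 scaled to the median. Over all genes, calls numbered 0 for knockout minus wild type (2 with array weights). They numbered 3 for wild type minus sham (0 with normexp, with probes above background on all arrays or with only the 2 groups compared, 1 with quantile normalization or the median, 147 with array weights, and 0 to 6 leaving out 1 array) and 3 for knockout minus sham (0, 0, 0, 1 and 1 under the same settings, 95 with array weights, and 0 to 8). The cause was not tested. Deviations of same-numbered arrays from their group means had correlations of -0.38, -0.56 and 0.35. Deviations within a group depend on each other and on wild type replicate 1, so these values cannot show whether the numbers pair the samples. With the replicate number as a block 0 receptors and 0 genes were called, and Ptger1 gave -0.40 ± 0.22 (SE, adjusted p 0.919 in limma).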
